A study of Mus musculus with 7 samples.

Results

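The genes described here are 10 mouse genes of the PGC1 network: the coactivator genes Ppargc1a, Ppargc1b and Pprc1, the nuclear receptor genes Esrra, Esrrg, Ppara and Ppard, and the nuclear-encoded regulators Nrf1, Gabpa and Tfam. They were chosen by name, and all 10 were found, each under a single Ensembl identifier, among 22027 genes of the count table. All 10 also passed the filter on low counts, which kept 12674 genes. The libraries come from left ventricle of 12-month-old C57BL/6J mice. The group labelled G3, described as telomerase-deficient, has 4 libraries, and the group labelled G3 PGC1aOE, described as G3 mice with PGC1alpha overexpressed, has 3. Telomerase deficiency is therefore shared by all 7 libraries, and no telomerase-proficient group was analysed here. The promoter and the cell type that drive the overexpression, and whether animals were pooled, have no description in the labels. The study's title concerns how the level of PGC1alpha bears on cardiac function and lifespan.

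PGC1alpha, encoded by Ppargc1a, does not bind DNA itself. It is recruited by transcription factors such as the estrogen-related receptors (ERR) and the peroxisome proliferator-activated receptors (PPAR), and it raises transcription of genes for fatty acid oxidation and the respiratory chain. In the heart, which burns mainly fatty acids, ERRalpha and ERRgamma bind genes of oxidative metabolism and PPARalpha binds genes of lipid catabolism. The factors NRF1 and GABP drive nuclear genes of the respiratory chain and Tfam, whose protein packages mitochondrial DNA and takes part in its transcription.

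Total counts per library ran from 10106705 to 16056740. Ventricular myocardium was recognisable in every library: the 13 ventricular cardiomyocyte markers summed to between 63982 and 85829 CPM in G3 and between 66853 and 85976 CPM in the libraries labelled G3 PGC1aOE (CPM are counts scaled to library totals with TMM factors). Mitochondrially encoded genes took from 24.7% to 42.4% of the counts. Libraries differed in how their counts were spread over short and long genes. On the log2 CPM scale, the deviation of a gene from its mean over libraries changed per doubling of gene length by −0.249 in G3 PGC1aOE 2 and by −0.168 in G3 PGC1aOE 3. That slope lay between 0.005 and 0.166 in the other 5. The 2 libraries with a negative slope held the lowest and the third-lowest level of Ppargc1a, and several results that move with this slope are given with and without it. Each library's description also carries a code whose meaning the labels do not give. The code contains G2 for G3 1, G3 3 and G3 PGC1aOE 1 and G3 for the other 4 libraries, although all 7 have G3 in their group label. The code starts with PC in the 3 libraries labelled G3 PGC1aOE, with P in G3 4, with C in G3 1 and G3 2 and with no such letter in G3 3. The length slope ran from 0.0997 to 0.166 in the 3 libraries coded G2 and from −0.249 to 0.026 in the 4 coded G3. In bulk tissue, fewer cells of a type and less RNA per cell cannot be told apart.

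Esrra stood far above the other 9 genes in level. Levels between genes are compared in the deposited FPKM, which divide counts by gene length and by library total. Esrra, the receptor gene ERRalpha, measured 180, 164, 210 and 152 FPKM in G3 1 to 4 and 147, 150 and 113 FPKM in G3 PGC1aOE 1 to 3. Its mean of 159 ± 30.1 FPKM (SD, n = 7) exceeded that of 96.2% of tested genes, and its lowest library was above the highest library of each of the other 9.

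Ppargc1a came next at 26.8 ± 10.3 FPKM (SD, n = 7). Gabpa, the DNA-binding subunit of GABP, followed at 21.4 ± 6.45, Tfam at 20.6 ± 3.07, Ppara at 17.6 ± 9.20 and Ppard, the receptor gene PPARdelta, at 15.1 ± 2.48. The lowest 4 were Ppargc1b at 8.24 ± 4.41, Esrrg at 7.47 ± 3.62, Pprc1, the PGC1-related coactivator gene, at 7.03 ± 1.21 and Nrf1 at 5.72 ± 1.14 (all SD, n = 7). Below Esrra most neighbours in this order were not separated. Ppargc1a exceeded Gabpa in 5 of 7 libraries, Gabpa exceeded Tfam in 4, Tfam exceeded Ppara in 5 and Ppara exceeded Ppard in 5. Ppard exceeded Ppargc1b in all 7, by 1.04 to 4.96 times, and Pprc1 exceeded Nrf1 in all 7, but in each of these pairs the ranges over libraries overlapped. Esrrg was above Pprc1 in only 3 libraries.

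The order rests on the gene lengths that the deposited tables imply, 924 bp for Esrra and 3040 bp for Ppargc1a. For Esrra, Ppargc1b and Pprc1 the implied length is shorter than the longest coding sequence in GENCODE M21 (1266, 3090 and 4938 bp). With the longest GENCODE transcript as length, a choice made after seeing the data, Esrra stayed first at 59.2 FPKM and Ppargc1a second at 12.6 FPKM, Ppara moved from the fifth to the third place, and Nrf1 passed Pprc1. Without strand in the library kit, reads of exons that Gabpa shares with Atp5j, Esrra with Trmt112 and Pprc1 with Ldb1 cannot be told apart.

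**Figure D1:**
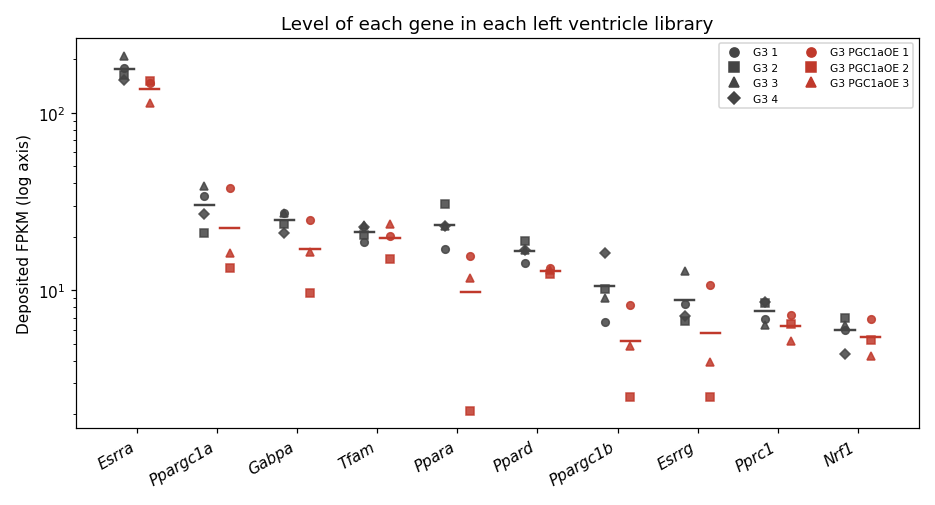
Deposited FPKM (log axis) of the 10 genes in each of the 7 libraries, ordered by mean level. Points are libraries, grey for G3 and red for G3 PGC1aOE, and bars are group means. Esrra lies above all others, and G3 PGC1aOE 2 is the lowest library for Ppargc1a, Gabpa, Tfam, Ppara, Ppard, Ppargc1b and Esrrg.

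Within each protein family a different degree of dominance was seen. Ppargc1a made up 62.9 ± 8.61% (SD, n = 7) of the summed FPKM of the 3 coactivator genes, with a range from 51.9% in G3 4 to 71.6% in G3 1. Ppargc1b held 19.0 ± 7.12% and Pprc1 18.1 ± 5.89%. Among the receptors, Esrra held between 85.3% and 93.3% of the ERR total. Esrrb, the remaining ERR gene, which was outside the chosen set, held 6.84 ± 1.54% and was above Esrrg, at 4.04 ± 1.52%, on average. The PPAR genes were more even: Ppara held 39.4 ± 15.1%, Ppard 36.7 ± 3.72% and Pparg, the adipose receptor gene of that family, 23.9 ± 11.8%. In G3 PGC1aOE 2 the order was turned around, with Pparg at 48.7%, Ppard at 43.8% and Ppara at 7.43%. Ratios within a library do not depend on how libraries are scaled, but they do rest on the implied gene lengths. With the longest GENCODE transcript as length, mean FPKM was 12.6 for Ppargc1a, 5.52 for Ppargc1b and 2.43 for Pprc1.

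By their range over libraries the 10 genes fell into a variable and a steady set, with the place of Gabpa resting on G3 PGC1aOE 2. Variability is given as the ratio of the highest to the lowest library in CPM. It was 12.0 for Ppara, 6.40 for Ppargc1b, 4.81 for Esrrg, 2.70 for Ppargc1a and 2.61 for Gabpa. It was between 1.39 and 1.71 for Nrf1, Pprc1, Ppard, Esrra and Tfam. In G3 PGC1aOE 2 Gabpa measured 18.7 CPM, against 34.5 to 48.8 CPM in the other libraries. Ppara measured 3.42 CPM there, against 20.9 to 41.1 CPM in the others. The SD of log2 CPM over the 7 libraries was 1.20 for Ppara, larger than that of 98.1% of tested genes, and 0.17 for Nrf1, larger than that of only 6.32%. In log2 CPM, G3 3 held the highest value of 5 genes (Ppargc1a, Esrra, Esrrg, Nrf1 and Gabpa). On that scale G3 PGC1aOE 2 held the lowest of 6 (Ppargc1a, Ppargc1b, Esrrg, Ppara, Gabpa and Tfam).

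None of the 10 genes passed the threshold for a difference between the groups, and neither did any other gene (edgeR quasi-likelihood test, adjusted p under 0.05, 0% of 12674 genes). Without adjustment 548 genes (4.32%) had p under 0.05, and 3.05% of tested genes had that and a positive fold change. The count of genes with an unadjusted p under 0.05 in either direction moved with the setting. It was 2464 without G3 PGC1aOE 1, 231 without G3 PGC1aOE 2, 1220 with limma voom and 1139 with the replicate number as a block. Ppargc1a itself, which the label names as overexpressed, measured 94.7, 56.8, 118 and 86.7 CPM in G3 1 to 4 and 103, 43.9 and 58.1 CPM in the libraries labelled G3 PGC1aOE. Only G3 PGC1aOE 1 stood among the higher libraries, and the groups overlapped. The log2 fold change was −0.38 with a 95% interval from −1.12 to 0.36 (edgeR, adjusted p = 0.847). It was −0.81 without G3 PGC1aOE 1 and −0.15 without G3 PGC1aOE 2. The message therefore does not show the overexpression the label names, and directions below refer to the label alone.

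The coactivator gene Ppargc1b, whose protein shares targets with PGC1alpha, measured 14.9, 22.2, 22.3 and 42.4 CPM in G3 1 to 4 and 18.1, 6.63 and 14.0 CPM in G3 PGC1aOE 1 to 3. G3 4, the G3 library whose code starts with P, stood alone at the top, and G3 1 lay within the range of the other group. The log2 fold change was −0.98 (SE 0.41; edgeR, unadjusted p = 0.0357, adjusted p = 0.847), and it was −0.62 without G3 4. Pprc1 measured 11.4, 13.7, 11.7 and 16.5 CPM against 11.7, 12.7 and 11.1 CPM. Its groups overlapped almost fully, with a log2 fold change of −0.17 and an SE of 0.21. That value was −0.05 without G3 4.

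Ppara, the receptor gene of fatty acid catabolism, was the only one of the 10 whose groups did not overlap. It measured 23.6, 41.1, 34.7 and 36.7 CPM in G3 1 to 4 and 21.04, 3.42 and 20.9 CPM in G3 PGC1aOE 1 to 3. The gap between the groups was narrow, from 21.04 to 23.6 CPM, and G3 PGC1aOE 2 lay far under the other libraries, from 47 counts. The log2 fold change was −1.17 (SE 0.52; edgeR, unadjusted p = 0.0491, adjusted p = 0.847) and −0.70 without G3 PGC1aOE 2. The exact permutation p on log2 CPM, 2-sided over 35 splits, was 0.0286, the smallest they can give. Separation downwards in the libraries labelled G3 PGC1aOE held for 2.39% of tested genes, and separation in either direction for 4.58%. Ppard measured 19.8, 25.4, 25.6 and 27.1 CPM against 18.2, 20.2 and 23.1 CPM, a log2 fold change of −0.26 (SE 0.20), with overlapping groups.

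The ERR genes also overlapped. Esrra measured 153, 134, 195 and 149 CPM in G3 1 to 4 and 122, 151 and 123 CPM in G3 PGC1aOE 1 to 3, a log2 fold change of −0.26 (SE 0.23) that was −0.16 without G3 3. Esrrg, the ERR gene most restricted to oxidative tissues, measured 25.3, 19.5, 42.7 and 25.1 CPM against 31.8, 8.88 and 15.4 CPM. Here G3 PGC1aOE 1 was the second-highest of all 7 libraries and the other two of its group were the lowest. The log2 fold change was −0.59 (SE 0.41). It was −0.26 without G3 PGC1aOE 2 and −1.22 without G3 PGC1aOE 1.

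Among the downstream regulators, Gabpa measured 45.1, 37.4, 48.8 and 39.8 CPM in G3 1 to 4 and 39.98, 18.7 and 34.5 CPM in G3 PGC1aOE 1 to 3. G3 PGC1aOE 1 lay within the G3 range, and G3 PGC1aOE 2 far under it. The log2 fold change was −0.46 (SE 0.27), and −0.20 without G3 PGC1aOE 2. Nrf1 measured 10.2, 11.5, 11.9 and 8.57 CPM against 11.5, 10.5 and 9.28 CPM, with a log2 fold change of −0.02 and a 95% interval from −0.49 to 0.45. Tfam measured 23.8, 25.2, 32.6 and 33.4 CPM against 24.997, 22.6 and 38.7 CPM. Its fitted log2 fold change was −0.00069 with an interval from −0.55 to 0.54.

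**Figure D2:**
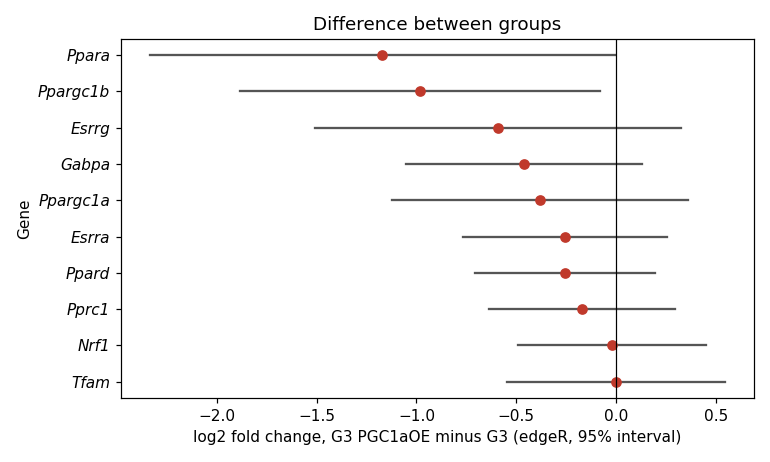
Fitted log2 fold change of each gene, libraries labelled G3 PGC1aOE minus G3, with 95% intervals from edgeR. All 10 points lie at or under 0, from −1.17 for Ppara to −0.00069 for Tfam, and no gene passed after adjustment over all tested genes.

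All 10 log2 fold changes were under 0, where 49.1% of tested genes were. For Nrf1 and Tfam the sign turned with upper quartile scaling, to 0.02 and 0.04. Without adjustment, Ppargc1b and Ppara had p under 0.05 and were lower, which 1.27% of tested genes were. The differences were not the same within the codes. Among the 3 libraries coded G2, the log2 CPM difference was −0.04 for Ppargc1a, −0.01 for Ppargc1b, −0.05 for Esrrg, −0.44 for Ppara and −0.23 for Gabpa. Among the 4 coded G3 it was −0.47, −1.65, −0.91, −2.17 and −0.60. The code also holds a number, which gives another split. Among the 4 libraries with numbers below 80, the log2 CPM difference was 0.26 for Ppargc1a, −0.10 for Ppargc1b, 0.20 for Esrrg, −0.61 for Ppara and −0.12 for Gabpa. Among the 3 with numbers of 80 and above it was −0.78, −2.12, −1.09, −2.08 and −0.64. In the split by number, 1 library labelled G3 PGC1aOE is in the first set and 1 labelled G3 in the second, and the libraries coded G2 include 1 labelled G3 PGC1aOE.

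Esrrg followed Ppargc1a from library to library more closely than the other 8 genes over all 7 libraries. In order of rising Ppargc1a the libraries were G3 PGC1aOE 2, G3 2, G3 PGC1aOE 3, G3 4, G3 1, G3 PGC1aOE 1 and G3 3. In that order Ppargc1a measured 5.46, 5.83, 5.86, 6.44, 6.57, 6.69 and 6.89 log2 CPM, and Esrrg measured 3.18, 4.30, 3.96, 4.66, 4.67, 4.996 and 5.42. Only G3 2 and G3 PGC1aOE 3 exchanged places. Pearson's r was 0.96 (exact permutation p = 0.000595, 2-sided over 5040 orderings, adjusted p = 0.0581 over all tested genes) and Spearman's rho was 0.96 (exact permutation p = 0.00278, adjusted p = 0.115). Without the 2 libraries farthest from the median of Ppargc1a, G3 PGC1aOE 2 and G3 2, r was 0.98. Of 12673 tested genes, 57 had a higher r. The 3 libraries coded G2 were the highest for both genes, at 6.57 to 6.89 log2 CPM of Ppargc1a against 5.46 to 6.44 in those coded G3, and at 4.67 to 5.42 of Esrrg against 3.18 to 4.66. On deviations from the means of the 2 codes, an alternative chosen after seeing the data, r was 0.91.

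Gabpa was the other gene with an unadjusted p under 0.05 for its relation to Ppargc1a. In the same order of libraries it measured 4.24, 5.23, 5.11, 5.32, 5.50, 5.33 and 5.61 log2 CPM, with r = 0.85 (exact permutation p = 0.00179, adjusted p = 0.065), rho = 0.93 (exact permutation p = 0.00675, adjusted p = 0.139) and r = 0.89 without the same 2 libraries. G3 PGC1aOE 2 lay far under the other libraries, and r was 0.86 without that library alone. A higher r was found for 711 genes. Gabpa too was higher in every library coded G2 (5.33 to 5.61 log2 CPM) than in those coded G3 (4.24 to 5.32), and r was 0.78 on deviations from the code means.

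For the other 7 genes a relation to Ppargc1a was not detectable with 7 libraries. For Ppara r was 0.60 (exact permutation p = 0.132, adjusted p = 0.323) and rho 0.21 (exact permutation p = 0.662), and r was 0.44 without the 2 farthest libraries. Without G3 PGC1aOE 2 alone it turned to −0.08. For Ppargc1b r was 0.58 (exact permutation p = 0.182, adjusted p = 0.383) and rho 0.50 (exact permutation p = 0.267). Its r was 0.27 without the 2 farthest libraries and 0.16 without G3 PGC1aOE 2. As taken over all 7 libraries, both values of r thus leaned on this library. On deviations from the code means, given below, r was higher for both genes, and G3 PGC1aOE 2 was not left out there. For Esrra r was 0.39 (exact permutation p = 0.398, adjusted p = 0.596), rho 0.21 (exact permutation p = 0.662) and r 0.63 without the 2 farthest libraries. Without G3 3 it was −0.06.

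The steady genes gave smaller values. For Nrf1 r was 0.21 (exact permutation p = 0.633), rho 0.29 (exact permutation p = 0.556) and r 0.71 without the 2 farthest libraries. For Tfam r was 0.18 (exact permutation p = 0.694), rho 0.18 (exact permutation p = 0.713) and r −0.58 without them. For Ppard r was 0.01 (exact permutation p = 0.978), rho −0.04 (exact permutation p = 0.963) and r −0.11 without them. For Pprc1 r was −0.12 (exact permutation p = 0.815), rho −0.32 (exact permutation p = 0.498) and r 0.05 without them. The adjusted p of these 4 values of r ran from 0.776 to 0.989, and these were 9 relations of the 12673 computed. None of these 7 genes was separated by the code. On deviations from the code means r was 0.94 for Ppargc1b, 0.75 for Ppara, 0.75 for Ppard, 0.69 for Pprc1, 0.66 for Tfam, 0.21 for Esrra and −0.47 for Nrf1, so that Pprc1 and Nrf1 changed sign and Ppargc1b stood above Esrrg.

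**Figure D3:**
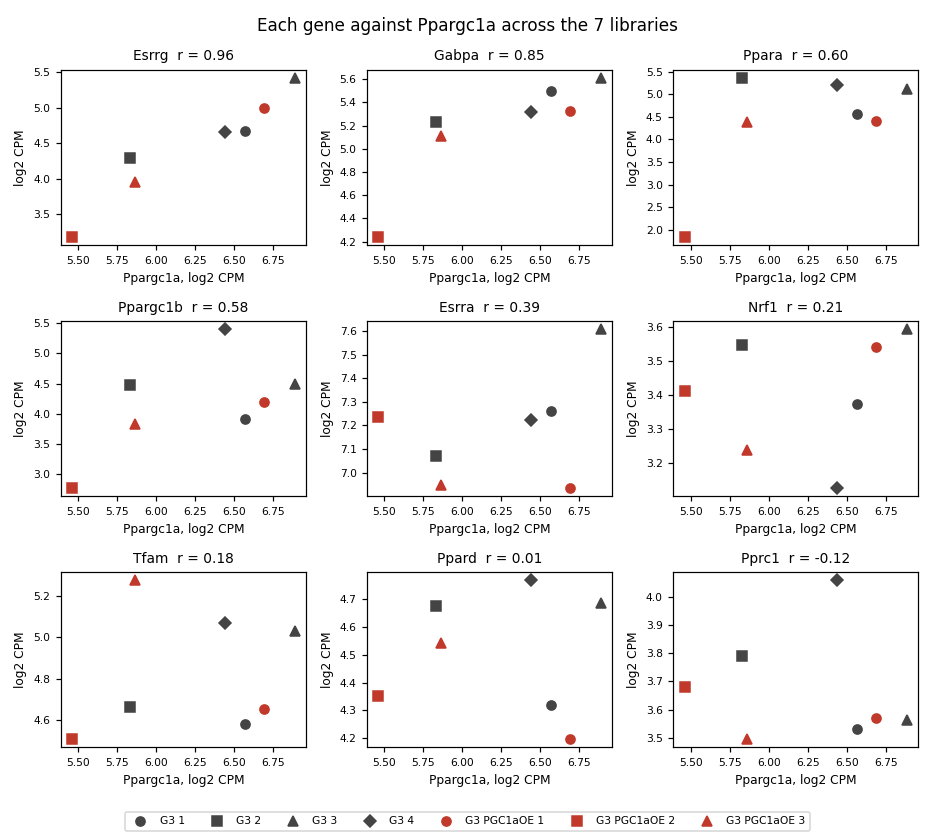
Log2 CPM of each of the other 9 genes against log2 CPM of Ppargc1a, 1 point per library (grey G3, red G3 PGC1aOE). Esrrg (r = 0.96) and Gabpa (r = 0.85) rise along Ppargc1a. For Ppara and Ppargc1b, r is −0.08 and 0.16 without the lower left point, G3 PGC1aOE 2.

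These relations stand against a broad one. An unadjusted exact p under 0.05 was reached by 24.5% of tested genes, 12.6% with positive and 11.9% with negative r, and by 2 of the 9 other members, Esrrg and Gabpa. That share of the members is near the background. The background itself was 12.2% without G3 PGC1aOE 2, 12.0% without the 2 farthest libraries and 15.5% on deviations from the code means. Complete separation of the libraries coded G2 from those coded G3, as for Ppargc1a, Esrrg and Gabpa, was found for 22.2% of the other 12673 genes. A positive r was found for 8 of the 9, against 50.4% of tested genes, and that of Ppard turned negative with upper quartile scaling. No gene passed after adjustment (0%), and the smallest adjusted p was 0.0581. On log2(FPKM + 1), with no TMM scaling, 302 genes passed, Esrrg among them with r = 0.97 (exact permutation p = 0.000198, adjusted p = 0.0434). The 7 values of Ppargc1a fell into a lower set of 3 libraries and a higher set of 4, with 0.58 log2 units between them out of a range of 1.43, and neither set holds enough libraries for a correlation of its own. Within the higher set Esrrg kept the order of Ppargc1a.

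**Figure D4:**
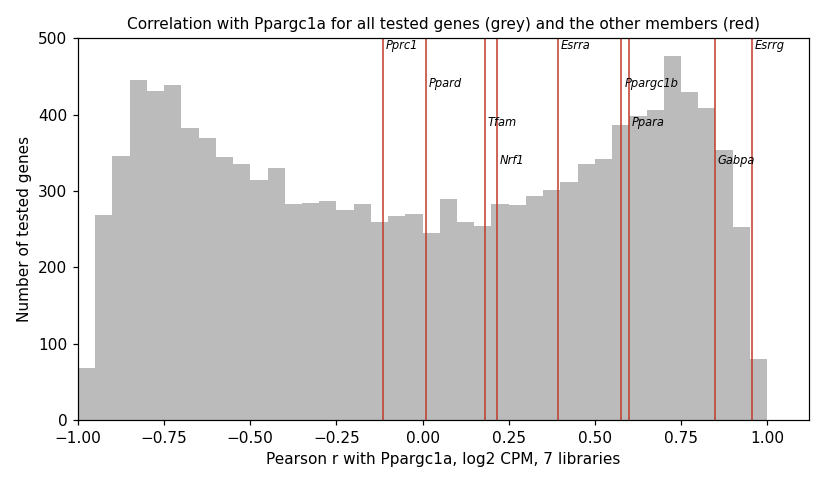
Number of tested genes by Pearson r with Ppargc1a over 7 libraries (grey bars), with the other 9 members as red lines. Many genes sit near either end, and Esrrg lies in the outermost bars while Pprc1, Ppard, Tfam and Nrf1 lie near the middle.

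The sequence before the start of Ppargc1a, and the short stretches around motif matches of Esrrg and Gabpa, the 2 genes of highest r with it, and of Tfam, the textbook target of NRF1 and GABP, are shown so that the start regions can be compared. They come from RefSeq windows of the 250 bases before a transcription start in build GRCm38.p6, whereas the reads were aligned to mm9. The table held 13 such windows for 9 of the 10 genes. Each was searched on both strands for an ERR element (TCAAGGTCA), a PPAR direct repeat, an NRF1 element, a GABP core (CCGGAAG), a cyclic AMP element core (TGACG) and a MEF2 element (TATTTATA). Capitals mark a match on either strand, and no matches overlapped.
Ppargc1a, chr5:51567726-51567975, minus strand: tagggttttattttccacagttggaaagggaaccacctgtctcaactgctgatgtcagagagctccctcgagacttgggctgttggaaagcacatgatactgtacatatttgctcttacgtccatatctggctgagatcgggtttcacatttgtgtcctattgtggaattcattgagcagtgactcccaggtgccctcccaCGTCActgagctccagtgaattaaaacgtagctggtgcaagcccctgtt
Esrrg, chr1:187608974-187609003, plus strand: taaaactttgcTATTTATAgtctacgcccg
Gabpa, chr16:84835020-84835049, plus strand: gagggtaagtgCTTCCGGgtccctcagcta
Tfam, chr10:71238073-71238102, minus strand: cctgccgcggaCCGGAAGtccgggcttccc
The Ppargc1a window held a cyclic AMP element core, the kind of site through which CREB raises this gene, 49 to 45 bases before the start. Such a core is in 17.8% of the 32851 windows of this length. A MEF2 element, which is in 1.56% of windows, lay 21 to 14 bases before the first of 4 starts of Esrrg. A GABP core, which is in 6.91% of windows, lay 93 to 87 bases before the RefSeq start of Gabpa and 47 to 41 bases before that of Tfam. GENCODE M21 has transcripts that start further upstream: the Gabpa and Esrrg matches lie in an intron of 1 of 5 transcripts each, and the Tfam match in an exon of 1 of 5 and an intron of 1. The Ppargc1a match lies outside all 5 of its transcripts. Other windows held the same motifs, with a MEF2 element 98 to 91 bases before a start of Nrf1 and a cyclic AMP core 222 to 218 bases before that of Ppara. Of the 9 genes, Ppara alone held an NRF1 element (3.74% of windows). In GENCODE M21 the MEF2 match of Nrf1 lies in an intron of 11 of 20 transcripts. For Ppara, the cyclic AMP core lies in an intron of 1 of 6 transcripts and the NRF1 element in an intron of 3 of 6. The ERR element and the PPAR repeat, which are in 0.387% and 0.0335% of windows, were in none of the 13. A match describes letters in a window and shows no binding.

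The libraries' spread of counts over gene length moved with Ppargc1a. The length slope of the libraries had r = 0.88 with Ppargc1a (exact permutation p = 0.00655, n = 7), rho = 0.86 (exact permutation p = 0.0238) and r = 0.94 without the 2 farthest libraries. Across genes, the median r with Ppargc1a rose from −0.56 in the shortest of 5 equal sets of tested genes to 0.44 in the longest. With each library's trend on gene length removed, a setting chosen after seeing the data, these medians were 0.01 and 0.01. Esrrg then had r = 0.94 and Gabpa r = 0.81. Esrra, with the shortest implied length of the 10, went from 0.39 to r = 0.80. Ppara had 0.56, Ppargc1b 0.51, Tfam 0.37, Ppard 0.13, Nrf1 0.09 and Pprc1 −0.15. Fold changes between the groups ran with length too: across all tested genes the rank correlation of length with log2 fold change was −0.34, and the median log2 fold change went from 0.23 in the shortest set to −0.07 and −0.15 in the 2 longest.

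**Figure D5:**
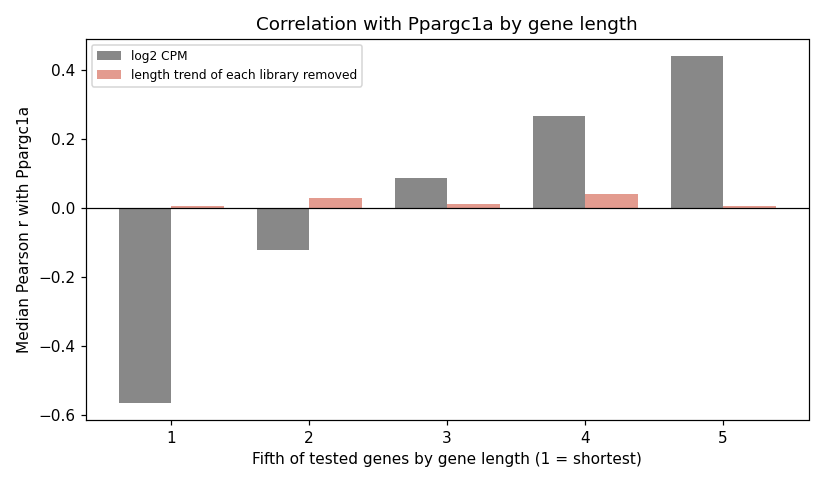
Median Pearson r with Ppargc1a in 5 equal sets of tested genes by length, before (grey) and after (pink) each library's trend on gene length was removed. The grey bars go from −0.56 to 0.44 and the pink bars stay within 0.05 of 0.

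By a fixed rule, the 5 genes of highest r with Ppargc1a over the 7 libraries, among 10146 genes averaging 2 log2 CPM or more, were Gfm2, Sspn, Efcab14, Fam20b and Ttc3, with r between 0.98 and 0.99. Gfm2 encodes a mitochondrial elongation factor and Sspn encodes sarcospan of the dystrophin complex. With Fam20b, both stood in the same order as Ppargc1a in all 7 libraries (rho = 1, exact permutation p = 0.000397, adjusted p = 0.114). The 3 genes of lowest r were Myl9, Lmod1 and Tagln, all of the smooth muscle contractile apparatus, with r of −0.99, −0.99 and −0.98. Tagln measured 22.7, 75.4, 18.0 and 38.2 CPM in G3 1 to 4 and 18.7, 187 and 109 CPM in G3 PGC1aOE 1 to 3. It was high in the 3 libraries where Ppargc1a was low.

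Markers of most other cell types had a negative median r with Ppargc1a, and erythroid markers the opposite, with 6 of 6 tested positive and a median of 0.73. Of 11 endothelial markers 10 had a negative r, with a median of −0.80 against 0.01 over all tested genes, and their summed level ran from 1281 to 1670 CPM in G3 and from 1275 to 2866 CPM in the libraries labelled G3 PGC1aOE. Of 9 smooth muscle and pericyte markers 7 had a negative r (median −0.49), with sums from 580 to 974 CPM and from 727 to 1120 CPM. All 9 tested adipocyte markers had a negative r (median −0.77), with sums from 462 to 739 CPM and from 473 to 1359 CPM and with Ucp1 at 0 counts in every library. Fabp4, also counted among the endothelial markers, made up most of these sums on average. Its mean was 531 CPM in G3 and 842 CPM in the libraries labelled G3 PGC1aOE. Of 12 fibroblast markers 11 had a negative r (median −0.53) and 8 had a positive fold change at an unadjusted p under 0.05 (edgeR, 0 after adjustment), with sums from 820 to 1406 CPM and from 1453 to 2300 CPM. All 6 tested atrial markers had a negative r (median −0.54) and a positive fold change in edgeR, with sums from 110 to 2847 CPM and from 508 to 3941 CPM. Nppa made up most of these sums on average, with means of 1387 and 1871 CPM. The mean log2 CPM of the list was highest in G3 PGC1aOE 3, at 7.46. It was 2.34 in G3 PGC1aOE 1, the library of the highest sum. In limma 4 of the 6 had a positive fold change, and 3 with the length trend removed. Taken one by one, ventricular cardiomyocyte markers were split, with 7 of 13 positive and a median of 0.33. Their mean log2 CPM had r = 0.77 with Ppargc1a (exact permutation p = 0.047, adjusted p = 0.139 over all lists). That r was 0.90 without the 2 farthest libraries. The list means had r = −0.90 for endothelial and −0.91 for smooth muscle and pericyte markers (exact permutation p = 0.00377 and 0.00754, adjusted p = 0.0754 for each). The part of cell makeup in the relations of Esrrg and Gabpa to Ppargc1a was not tested.

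Coregulators bind PGC1 proteins or restrain them. Of 19 coregulator genes tested, 18 were lower in the libraries labelled G3 PGC1aOE and 1 was higher, the median of their log2 fold changes being −0.32 against 0.01 over all tested genes, and 0 of 19 passed after adjustment (edgeR), with 2 at an unadjusted p under 0.05. These are long genes, with a median implied length of 3194 bp, and with the length trend removed (limma) 15 were lower and 4 higher, with a median of −0.24. With Ppargc1a, 16 of 19 had a positive r and the median was 0.62 (0.50 with the length trend removed). Ncor1, the nuclear receptor corepressor gene, had r = 0.89 (exact permutation p = 0.00159, adjusted p = 0.065), rho = 0.93 (exact permutation p = 0.00675) and r = 0.99 without the 2 farthest libraries. Carm1, an arginine methyltransferase gene, had a fold change between the groups of −0.56 on the log2 scale, with an SE of 0.23 (edgeR, adjusted p = 0.847).

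Of 31 other nuclear receptors and partner factors tested, 19 were lower and 12 higher (median −0.17), 0 passed after adjustment in edgeR and 2 had an unadjusted p under 0.05. Their median r was 0.08, but 0.49 without G3 3 and 0.35 without the 2 farthest libraries. Mef2c, a cardiac transcription factor gene whose protein activates the Ppargc1a promoter, had r = 0.98 (exact permutation p = 0.000595, adjusted p = 0.0581) and rho = 0.96 (exact permutation p = 0.00278), and r = 0.97 without the 2 farthest libraries. Yy1, whose protein binds PGC1alpha, had a fold change between the groups of −0.50 on the log2 scale, with an SE of 0.19, and its r with Ppargc1a was 0.53 (exact permutation p = 0.229).

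Of 30 genes whose products act on Ppargc1a or its protein, 23 were lower and 7 higher (median −0.18), with 0 at an adjusted or an unadjusted p under 0.05 (edgeR). Trp53, the gene of p53, a repressor of Ppargc1a in mice with short telomeres, was the gene of lowest r among them. It measured 13.4, 18.0, 9.87 and 14.5 CPM in G3 1 to 4 and 10.7, 21.8 and 16.8 CPM in G3 PGC1aOE 1 to 3. Ordered by Ppargc1a the 7 libraries fell in exactly the reverse order for Trp53 (rho = −1, exact permutation p = 0.000397, adjusted p = 0.114). Trp53 lay between 9.87 and 13.4 CPM in the libraries coded G2 and between 14.5 and 21.8 CPM in those coded G3, with no overlap, so that both genes share this split. Pearson's r was −0.97 (exact permutation p = 0.000198, the smallest that 7 libraries can give, adjusted p = 0.0581), −0.92 without the 2 farthest libraries and −0.96 with the length trend removed. Its log2 fold change between the groups was 0.24 with an SE of 0.28, and its groups overlapped. Camk2d, a calcium-dependent kinase gene, had r = 0.98 (exact permutation p = 0.000397, adjusted p = 0.0581), rho = 0.96 (exact permutation p = 0.00278) and r = 0.99 without the 2 farthest libraries.

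Of 31 PPAR target genes, 26 were lower and 5 higher in the libraries labelled G3 PGC1aOE (median −0.37), 0 passed after adjustment and 3 lower ones had an unadjusted p under 0.05 (edgeR). In limma with the length trend removed, 30 were lower and 1 higher, with a median of −0.31. With Ppargc1a, 22 of 31 had a positive r (median 0.44, and 0.54 with the length trend removed). Acot1, an acyl-CoA thioesterase gene, measured 15.8, 15.2, 22.2 and 14.3 CPM in G3 1 to 4 and 8.62, 6.55 and 4.86 CPM in G3 PGC1aOE 1 to 3, with no overlap. Its log2 fold change was −1.34 (SE 0.27; edgeR, unadjusted p = 0.000438, adjusted p = 0.847), and it was among the 3 genes that DESeq2 called. Pdk4, which restrains glucose oxidation, measured 263, 278, 589 and 592 CPM against 280, 146 and 181 CPM, a log2 fold change of −1.09 (SE 0.39), and its groups overlapped. The fatty acid activating enzyme gene Acsl1 had r = 0.93 (exact permutation p = 0.00218, adjusted p = 0.0668), rho = 0.86 (exact permutation p = 0.0238) and r = 0.90 without the 2 farthest libraries. The uncoupling protein gene Ucp2 lay opposite, at r = −0.97. Of 32 ERR target genes, 16 were lower and 16 higher (median −0.0011, 0 passed and 0 had an unadjusted p under 0.05). In limma with the length trend removed, 21 of them were lower and 11 higher, with a median of −0.12. The median r of the ERR targets with Ppargc1a was −0.25. That median turned to 0.34 with the length trend removed and was −0.0016 without the 2 farthest libraries, and the median implied length of these genes was 1156 bp. Mfn2, the mitochondrial fusion gene, had the highest r of the list, 0.95.

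The NRF1 and GABP targets, mostly short respiratory chain genes with a median implied length of 1008 bp, had mostly negative r. Of 33 tested, 27 were higher and 6 lower in the libraries labelled G3 PGC1aOE (median 0.38), 0 passed after adjustment and 1 had an unadjusted p under 0.05 (edgeR). With the length trend removed (limma), 19 were higher and 14 lower, with a median of 0.02. Their median r with Ppargc1a was −0.67, with 27 of 33 negative, and −0.12 with the length trend removed. Cox8a, a subunit of cytochrome c oxidase, had r = −0.94 before and −0.68 after that removal. Of 31 genes of mitochondrial DNA transcription and replication beside Tfam, 18 were higher and 13 lower (median 0.03, 0 passed, 1 at an unadjusted p under 0.05), with a median r of 0.03, or −0.25 without G3 3. Among them Lrpprc, whose protein stabilises mitochondrial messenger RNA, had r = 0.94 with Ppargc1a (exact permutation p = 0.00298, adjusted p = 0.0705), rho = 0.86 (exact permutation p = 0.0238) and r = 0.94 without the 2 farthest libraries. The 13 mitochondrially encoded messenger RNAs were higher in 12 cases (median 0.29, 0 passed and 0 had an unadjusted p under 0.05), and their median r with Ppargc1a was −0.14. It was 0.25 with the length trend removed, −0.72 without the 2 farthest libraries, −0.64 without G3 2 and 0.13 without G3 PGC1aOE 3. In limma 11 of these messenger RNAs were higher and 2 lower, with a median log2 fold change of 0.32. With the length trend removed 9 were higher and 4 lower, with a median of 0.13.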

How the data were processed

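RNA of 7 left ventricle libraries was sequenced from Trizol extracts with a TruSeq RNA kit, per the labels' protocols. The deposited values are counts per gene and FPKM. CASAVA and Bowtie 0.12.2 with mm9 are named in the submitters' processing notes. For the counting step no tool is named there. Genes without a symbol (279 of 22027) took at most 0.0295% of counts. The FPKM equal the authors' counts scaled by gene length and by the library total, which gives the implied gene lengths.

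Counts were tested with edgeR 4.0.16 (R 4.3.3; quasi-likelihood, TMM, filterByExpr, Benjamini-Hochberg at 0.05), which left 12674 genes and 9353 untested. Log2 CPM used a prior count of 2. Correlations used all 5040 orderings of 7 libraries, adjusted over 12673 genes, and group permutations used 35 splits. Alternatives used DESeq2 1.42.0, limma 3.58.1, other scalings, filters and pseudocounts, and libraries left out. On simulated data, edgeR recovered 5% of 2-fold and 88% of 4-fold changes in the comparison of the groups.

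The members and lists were chosen with earlier results of these data known. Besides the members, named genes are the 5 of highest and 3 of lowest r with Ppargc1a, and per list at most 3 of smallest p, 2 of highest and 1 of lowest r. Nothing in the labels says that libraries came from separate animals, and p-values then measure only the spread between these libraries.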

Additional observations from a re-analysis of the deposited data

How the results depend on the processing

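The count of genes that differed between the groups was 0 in edgeR, 3 in DESeq2 (Acot1, Col3a1 and Ptn) and 4 with the replicate number as a block (H2-Ab1, H2-Eb1, Retnla and Scd4), a fit that leaves out G3 4, whose number has no partner, and tests 12586 genes. Without G3 4 and with no block it was 0. Same-numbered libraries had correlations of 0.46, 0.12 and −0.09 in their deviations from the group means. The labels do not say whether such libraries are paired, and these few correlations cannot decide it. G3 PGC1aOE 1 correlated best with its own number, G3 1, with which it also shares the code G2. The other libraries of its group did not correlate best with their own number. The log2 fold change of Nrf1 turned to 0.021 with upper quartile scaling, 0.0068 with the code text and 0.11 with the code number as covariate, and ranged from −0.11 to 0.055 when libraries were left out in turn. That of Tfam turned to 0.038 with upper quartile scaling, 0.0037 with a CPM filter, 0.19 with limma voom, 0.011 without mitochondrially encoded genes and 0.056 with the replicate block, and ranged from −0.28 to 0.15 when libraries were left out. The correlation of Ppard with Ppargc1a turned to −0.10 with upper quartile scaling, −0.35 on deviations from group means, −0.017 without mitochondrially encoded genes and −0.11 without the 2 farthest libraries. That of Pprc1 turned to 0.28 on log2(FPKM + 1), 0.29 on log2(FPKM + 0.1) and 0.046 without the 2 farthest libraries, and that of Tfam to −0.58 without them. On deviations from the code text means, Pprc1 turned to 0.69 and Nrf1 to −0.47. With libraries left out in turn, the correlation ranged from −0.27 to 0.33 for Ppard, −0.51 to 0.034 for Pprc1, −0.20 to 0.57 for Tfam, −0.060 to 0.69 for Esrra, −0.037 to 0.47 for Nrf1 and −0.082 to 0.82 for Ppara. Esrrg reached 0.97 on both FPKM scales, with adjusted p = 0.0434 and 0.0419 by exact permutation. With the longest GENCODE transcript as length, mean FPKM was 12.6 for Ppargc1a, 2.43 for Pprc1, 59.2 for Esrra, 7.75 for Ppara, 6.12 for Ppard, 2.63 for Nrf1, 7.67 for Gabpa and 6.84 for Tfam. The cause was not tested for any of these changes. With 7 libraries, 2-fold changes between the groups are mostly out of reach.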
